A study of Mus musculus with 6 samples.

Results

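The genes described here are 10 secreted or membrane-bound metalloprotease genes and genes of their inhibitors: the matrix metalloprotease (MMP) genes Mmp8, Mmp9, Mmp12, Mmp13, Mmp14 and Mmp19, the tissue inhibitor (TIMP) genes Timp1, Timp2 and Timp3, and Adam8. They were chosen by symbol, and all 10 have a row among the 23413 genes of the deposited count table. RNA-seq libraries came from alveolar macrophages, the phagocytes of the air spaces, which were lavaged from wild-type mice; LPS and VD3 were given in vitro. The groups were cells given 100 ng/mL lipopolysaccharide (LPS) with 50 nM vitamin D3 (VD3) for 4 h, cells given the same dose of LPS alone for the same time, and control cells, with 2 libraries each and 6 in all. All groups were wild type. The labels name no strain, sex or age, no form of VD3 and no culture conditions for the control cells, and do not tie libraries to mice. A p-value here thus measures the spread of 2 libraries a group, which could be technical spread alone.

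MMPs are zinc-dependent endopeptidases that are made as inactive precursors and cut collagens, elastin, other matrix proteins and many signalling proteins. TIMPs bind the active site of MMPs and block them, and Timp3 is also known to inhibit ADAM proteases, the membrane-anchored relatives to which Adam8 belongs. In the lung, Mmp12, the macrophage elastase, is the MMP best known from resident macrophages, and Mmp8 and Mmp9 are stored in neutrophil granules.

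The libraries held 5022314 to 5465223 counts. Of all genes, 10724 had enough counts to be tested, among them 8 of the 10; Mmp9 and Timp3 did not. Pearson's r of log2 CPM (counts scaled to library size) across genes was 0.976 between the LPS + VD3 libraries, 0.965 between the LPS libraries and 0.987 between the control libraries. The difference between LPS 1 and LPS 2 moved with the GC content of the transcripts (Spearman's rho of 0.661 across genes, against 0.183 in LPS + VD3 and 0.229 in control). GC content is thus given below where a call for 1 of the 10 genes turns on the LPS libraries. The title of LPS 1 carries a number outside the series of the other libraries. The labels do not say why, and whether LPS 1 was handled apart is not known. Of 16 listed alveolar macrophage markers 13 were in the table and all of these were tested, with summed levels of 17876.2 to 20578.7 CPM in LPS + VD3, 16824.1 to 17516.3 CPM in LPS and 15008.2 to 15788.1 CPM in control. The sum is carried by its abundant genes. By edgeR's test 3 of the 13 were higher and 7 lower in LPS against control, beside 31.4% of all genes called. In LPS + VD3 against control 2 were higher and 6 lower, beside 34.6% of all genes called.

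LPS against control asked how these genes differed between cells with LPS and control cells. The labels give no time in culture for control, so time in culture and LPS cannot be told apart there. The collagenase gene Mmp13, the membrane-type protease gene Mmp14 and the inhibitor gene Timp1 rose, each by at least 7.04-fold, while Mmp19 and Adam8 fell to 0.414 and 0.544 of control. Mmp12, by far the most abundant of the 10, and the second collagenase gene Mmp8 did not pass the test. Thus 5 of the 8 tested genes were called, 3 higher and 2 lower, at an adjusted p under 0.05 in edgeR's quasi-likelihood test, beside 31.4% of all genes tested. Their median log2 fold change was -0.11, against 0.01 over all genes tested.

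LPS + VD3 against LPS asked what VD3 added. Mmp13 rose again, by 2.19-fold, to the highest level of the study, and none of the other 7 tested genes passed, 0 of them also at an unadjusted p under 0.05 and 0 with DESeq2. That is 1 of 8, beside 3.81% of all genes tested, and the median log2 fold change was 0.09, against 0.00 over all genes. LPS + VD3 against control shares its libraries with both other comparisons, so its values are no independent evidence. There 7 of 8 genes were called, 4 higher and 3 lower, beside 34.6% of all genes tested, with a median of 0.20 against 0.01. These are bulk libraries, in which fewer cells of a type and less RNA per cell cannot be told apart.

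**Figure D1:**
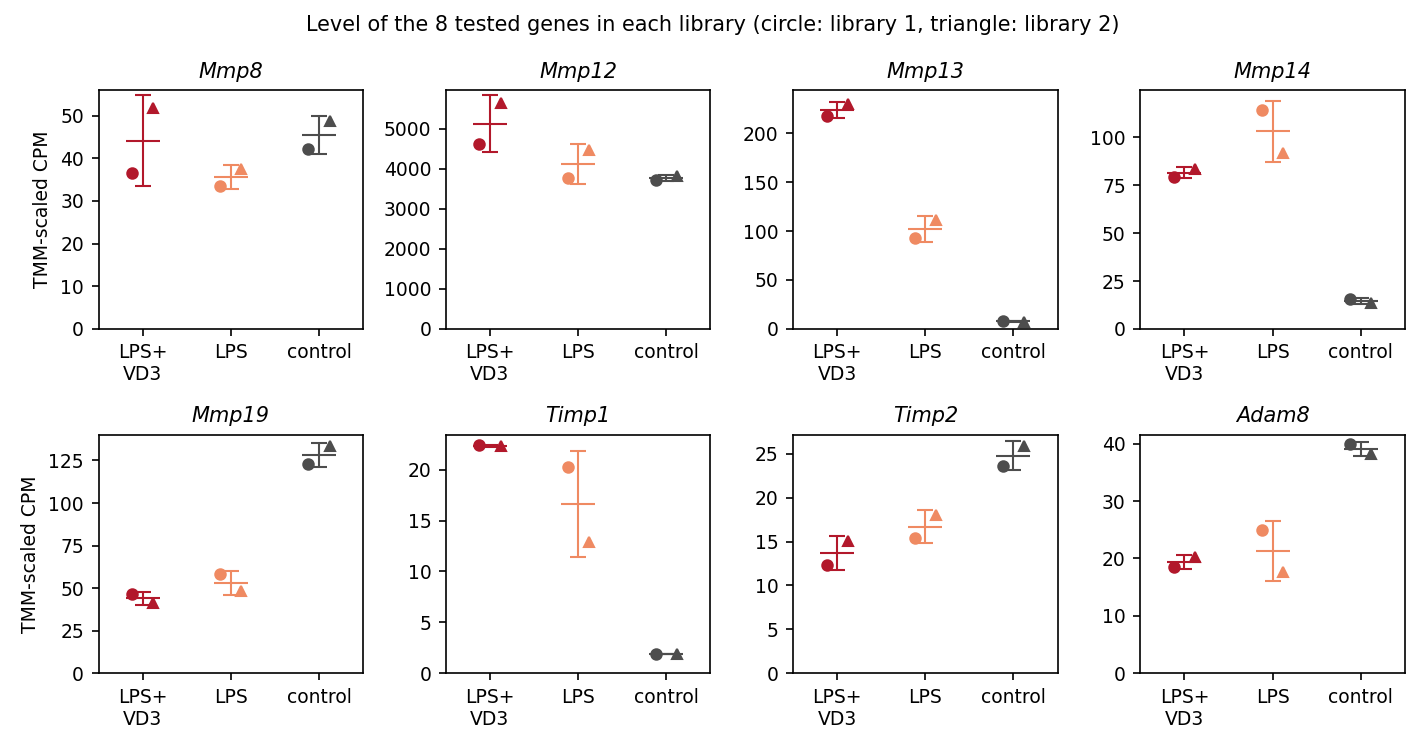
Level of the 8 tested genes in TMM-scaled CPM (y axis, linear, from 0) in the LPS + VD3, LPS and control groups. Points are single libraries, and bars are the mean ± SD of 2 libraries. The Mmp13 libraries stand in 3 separate steps, with LPS + VD3 at 218.0 and 230.0 CPM, and Mmp14 and Timp1 are low in control alone, while Mmp19, Timp2 and Adam8 are highest there.

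The interstitial collagenases come first. Mmp13, which cuts fibrillar collagen and is the main collagenase of many rodent tissues, stood at 218.0 and 230.0 CPM in LPS + VD3, at 92.6 and 111.7 CPM in LPS and at 8.38 and 7.52 CPM in control. No 2 groups overlapped, and the libraries of LPS + VD3 lay closest together in relative terms. Over all genes tested, the groups did not overlap for 65.2% in LPS against control and 48.1% in LPS + VD3 against LPS. In LPS + VD3 against control this share was 75.8%. The log2 fold change in LPS against control was 3.68 ± 0.19 (SE; edgeR quasi-likelihood test, Benjamini-Hochberg adjusted p = 4.99e-07). In LPS + VD3 against LPS it was 1.13 ± 0.16 (edgeR adjusted p = 0.00405), and in LPS + VD3 against control 4.81 ± 0.20 (edgeR adjusted p = 9.07e-08). With GC offsets the VD3 value was 0.81 (edgeR adjusted p = 0.00167); the mean GC content of the Mmp13 transcripts is 41.7%. The VD3 call was lost in a fit without LPS + VD3 1 (1.17, edgeR adjusted p = 0.0569) or without LPS + VD3 2 (1.09, 0.0924), which leave 1 library in that group.

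Mmp8, the collagenase of neutrophil granules, was found at 36.6 and 51.7 CPM in LPS + VD3, 33.6 and 37.6 CPM in LPS and 42.3 and 48.7 CPM in control. The LPS libraries were the lowest but for LPS + VD3 1, which lay between them. Its log2 fold change was -0.35 ± 0.20 in LPS against control (edgeR adjusted p = 0.22), 0.31 ± 0.21 in LPS + VD3 against LPS (0.387) and -0.04 ± 0.20 in LPS + VD3 against control (0.891). Without scaling beyond library size the value in LPS against control was -0.65, which passed (edgeR adjusted p = 0.0283), as did the value in the deposited log2 table (-0.62, limma adjusted p = 0.0341). Of 15 neutrophil markers, 14 were in the table and 4 were tested; Mpo, Elane, Prtn3, Ctsg, Retnlg and S100a9 had 0 counts in every library. The summed neutrophil markers were at 39.0 to 44.3 CPM in LPS + VD3, 49.5 to 56.1 CPM in LPS and 18.2 to 20.5 CPM in control. The 4 tested markers did not move together. Lcn2 had 6.9 and 8.75 CPM in LPS + VD3, 33.2 and 20.2 CPM in LPS and 0.342 and 0.0 CPM in control. S100a8 had means of 18.6 CPM in LPS + VD3, 15.7 CPM in LPS and 10.6 CPM in control. For Cxcr2 the means were 12.2, 6.2 and 6.21 CPM in the same order, and for Csf3r 1.53, 2.85 and 1.73 CPM. The part of neutrophil RNA in the Mmp8 values was not tested.

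Mmp9, the gelatinase of neutrophils and activated macrophages, had 0 counts in both LPS + VD3 libraries, 0 in both LPS libraries and 1 count over both control libraries. A count of 0 over both libraries allows up to 0.306 CPM in LPS + VD3 and 0.305 CPM in LPS (3 counts, for counting error only), so a level under that was not detectable at this depth.

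Mmp12, the macrophage elastase, reached 4626.4 and 5635.7 CPM in LPS + VD3, 3771.8 and 4480.0 CPM in LPS and 3712.4 and 3812.5 CPM in control. It made up 0.358% to 0.519% of all counts of a library and ranked between place 14 and place 25 of all genes by count. The mean GC content of the Mmp12 transcripts is 42.5%. The LPS + VD3 libraries were the highest, and LPS 1 fell between the control libraries. The log2 fold change was 0.13 ± 0.15 in LPS against control (edgeR adjusted p = 0.549, and -0.16 without scaling) and 0.31 ± 0.15 in LPS + VD3 against LPS (0.255). Set against control, LPS + VD3 cells had more Mmp12, by 0.45 ± 0.15 (edgeR adjusted p = 0.0443). This last call was lost without scaling (0.12, edgeR adjusted p = 0.557), in the deposited log2 table (0.12, limma adjusted p = 0.615), with GC offsets (0.22, edgeR adjusted p = 0.128), and without LPS + VD3 2 (0.279), control 1 (0.261) or control 2 (0.207). Between LPS + VD3 and LPS, the difference was 0.45 without LPS 2, a fit that leaves 1 LPS library. With GC offsets it was 0.02 (edgeR adjusted p = 0.949).

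Mmp14, the membrane-type MMP that activates the gelatinase precursor encoded by Mmp2 and also cuts collagen itself, stood at 79.4 and 83.7 CPM in LPS + VD3, 114.5 and 92.1 CPM in LPS and 15.7 and 13.6 CPM in control. Both treated groups lay far above control. The log2 fold change was 2.82 ± 0.19 in LPS against control (edgeR adjusted p = 2.63e-06) and 2.47 ± 0.19 in LPS + VD3 against control (5.72e-06). LPS + VD3 lay below LPS in both libraries, but the difference of -0.34 ± 0.17 did not pass (edgeR adjusted p = 0.264). The difference was -0.49 without LPS 2, a fit that leaves 1 LPS library, and 0.03 with GC offsets (edgeR adjusted p = 0.933). Mmp14 has the highest transcript GC content of the 10 genes, 58.3%.

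Mmp19, a secreted MMP that cuts basement membrane components, moved the other way. It was at 46.6 and 41.3 CPM in LPS + VD3, 58.2 and 48.1 CPM in LPS and 123.2 and 133.3 CPM in control. The control libraries were the highest by a wide margin, and the log2 fold change was -1.27 ± 0.17 in LPS against control (edgeR adjusted p = 0.000248) and -1.54 ± 0.17 in LPS + VD3 against control (7.08e-05). The difference between LPS + VD3 and LPS, -0.27 ± 0.17, did not pass (edgeR adjusted p = 0.367). Exons of Mmp19 overlap those of Tmem198b and Gm47093 on the other strand over 1001 bp; no source names the strand setting of the counting, so reads of these genes cannot be told apart there.

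Among the inhibitors, Timp1, the inducible and secreted TIMP, stood at 22.4 and 22.3 CPM in LPS + VD3, 20.3 and 12.9 CPM in LPS and 1.88 and 1.92 CPM in control. These control levels rest on 11 and 12 counts. Timp1 rose, with a log2 fold change of 3.11 ± 0.33 in LPS against control (edgeR adjusted p = 5.71e-05) and 3.54 ± 0.32 in LPS + VD3 against control (1.87e-05). The value in LPS + VD3 against LPS was 0.43 ± 0.25 (edgeR adjusted p = 0.331): the LPS libraries lay further apart than the group means.

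Timp2, which helps Mmp14 to activate the Mmp2 precursor besides inhibiting MMPs, followed the opposite order. It was at 12.3 and 15.1 CPM in LPS + VD3, 15.4 and 18.0 CPM in LPS and 23.6 and 25.9 CPM in control. The log2 fold change of -0.57 ± 0.21 in LPS against control missed the threshold (edgeR adjusted p = 0.0623). It passed without scaling (-0.87, edgeR adjusted p = 0.008), without LPS 2 (-0.69, 0.0205), with the replicate number as a block (-0.57, 0.036) and in the deposited log2 table (-0.82, limma adjusted p = 0.0111). In LPS + VD3 against control Timp2 had a log2 fold change of -0.85 ± 0.21 (edgeR adjusted p = 0.0111), a call lost without control 1 (0.0623), control 2 (0.116) or LPS + VD3 1 (0.0859). The difference between LPS + VD3 and LPS was -0.28 ± 0.22 (edgeR adjusted p = 0.473). The mean GC content of the Timp2 transcripts is 54.7%. Timp3, the matrix-bound TIMP, had 4 counts over both LPS + VD3 libraries, 1 over both LPS libraries and 1 over both control libraries, and its exons overlap Syn3 on the other strand over 1733 bp. Those counts are too few to compare the groups.

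Adam8, a membrane-anchored protease of myeloid cells that sheds adhesion molecules, was at 18.6 and 20.3 CPM in LPS + VD3, 25.0 and 17.6 CPM in LPS and 40.0 and 38.2 CPM in control. The LPS libraries enclosed the LPS + VD3 libraries, and control was higher than both. Adam8 fell, with a log2 fold change of -0.88 ± 0.21 in LPS against control (edgeR adjusted p = 0.00853) and -1.01 ± 0.21 in LPS + VD3 against control (0.00399). The first of these calls was lost without control 1 (edgeR adjusted p = 0.0734) or control 2 (0.0545), while the fold change stayed at -0.85 and -0.91. The difference between LPS + VD3 and LPS, -0.13 ± 0.22, did not pass (edgeR adjusted p = 0.752).

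**Figure D2:**
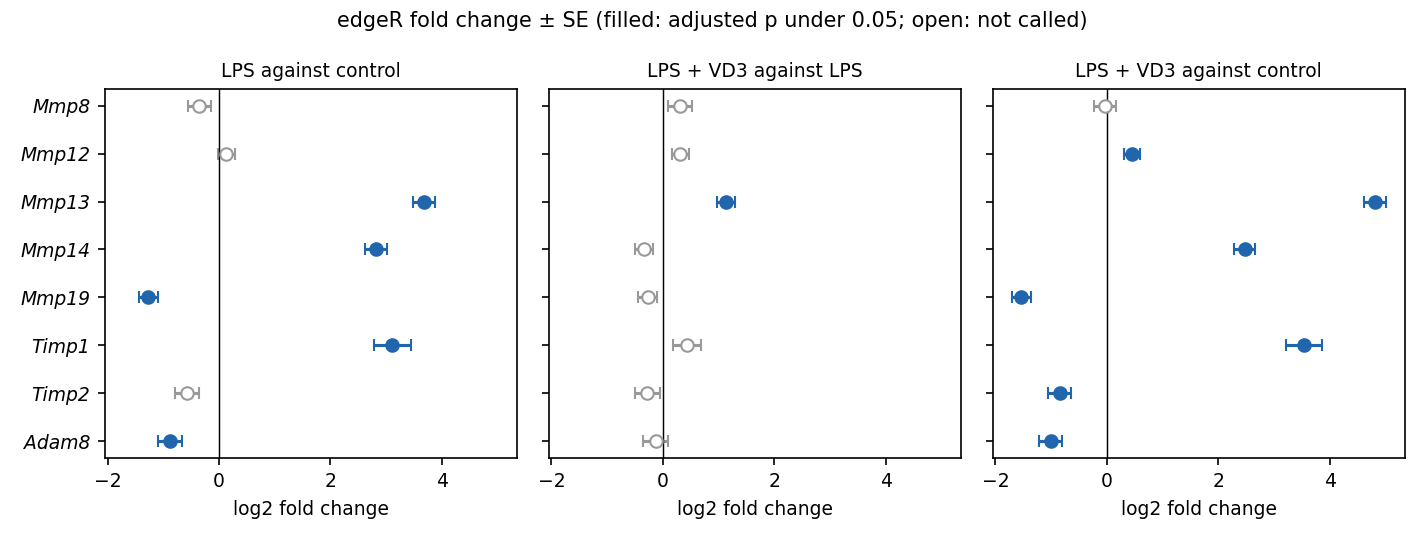
log2 fold change of the 8 tested genes (x axis) ± SE of the edgeR fit in the 3 comparisons; filled points passed an adjusted p of 0.05 and open points did not. In LPS + VD3 against LPS the single filled point is Mmp13 at 1.13, and in LPS against control Mmp13, Mmp14 and Timp1 stand right of 0 and Mmp19 and Adam8 left of it.

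Levels of different genes were compared as CPM per kb of the exons annotated over all transcripts of a gene, which understates genes with long rare exons. In control the order was Mmp12 (519.9 CPM per kb), Mmp19 (36.3), Mmp8 (18.7), Adam8 (8.44), Timp2 (6.36), Mmp13 (2.97), Mmp14 (2.46) and Timp1 (2.14), and the libraries of neighbours in this order did not overlap. In LPS, Mmp13 stood second at 38.2 CPM per kb, behind Mmp12 at 570.1. Timp1, Mmp14, Mmp19 and Mmp8 followed between 18.7 and 14.7, with overlapping libraries from each to the next, and Adam8 and Timp2, at 4.59 and 4.28, overlapped as well. The LPS + VD3 order was led by Mmp12 (709.0 CPM per kb) and Mmp13 (83.8), and Timp1 came next at 25.1. Mmp9 and Timp3 were last in each group.

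Mmp12 made up 80.4% and 82.4% of the summed level per kb of the 10 genes in LPS + VD3, 81.7% and 85.0% in LPS and 87.3% and 86.8% in control. Set apart from Mmp12, a choice made after its level was seen, the other MMPs of the list changed in make-up. Mmp13 held 66.2% and 64.6% of their sum in LPS + VD3, 41.2% and 48.4% in LPS and 5.4% and 4.47% in control. Among the TIMPs, Timp1 held 88.8% and 86.4% in LPS + VD3, 85.2% and 75.9% in LPS and 25.8% and 24.5% in control. The sum of the other MMPs was 123.2 and 133.1 CPM per kb in LPS + VD3, 84.2 and 86.4 in LPS and 58.1 and 62.9 in control. The sum of the TIMPs was 28.4 and 29.0 CPM per kb in LPS + VD3, 26.8 and 19.2 in LPS and 8.2 and 8.82 in control. These sums and shares are descriptions of RNA, with no test, and say nothing of active enzyme.

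**Figure D3:**
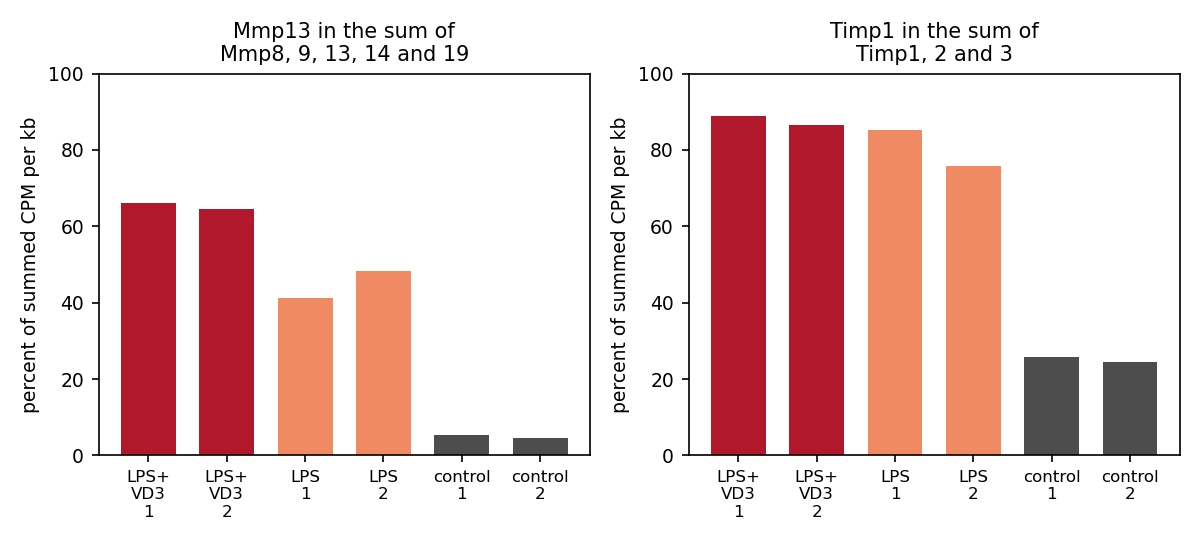
Share of Mmp13 in the summed CPM per kb of Mmp8, Mmp9, Mmp13, Mmp14 and Mmp19 (left) and of Timp1 in that of Timp1, Timp2 and Timp3 (right), in percent (y axis, 0 to 100), with a bar for each library. The Mmp13 share steps down from the highest bars, 66.2% and 64.6% in LPS + VD3 at the left, down to 5.4% and 4.47% in control at the right, and Timp1 is above 75% in all 4 libraries with LPS.

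Mmp13, Mmp12 and Mmp8 lie in 1 cluster of 10 MMP genes on chromosome 9 (GRCm38, the assembly also called mm10, GENCODE M21), from 7272514 to 7699585. Mmp13 lies at 7272514 to 7283331, Mmp12 at 7344381 to 7369499 and Mmp8 at 7558456 to 7568485, all on the plus strand. These 3 were the only genes of the cluster with enough counts to be tested: Mmp1b, Mmp3, Mmp10, Mmp20 and Mmp7 had 0 counts in every library, Mmp1a had 1 and Mmp27 had 15 over all 6 libraries. Mmp12 and Mmp1b overlap by 157 bp of exon on opposite strands, and no count was assigned to Mmp1b. Between Mmp13 and Mmp12, 71.9 kb apart, the fold changes in LPS against control were 3.68 and 0.13 on the log2 scale. The other genes lie elsewhere. Mmp14 is on chromosome 14 (54431612 to 54445364), Mmp19 on chromosome 10 (128790910 to 128800824), Timp1 on the X chromosome (20870166 to 20874735, within Syn1 on the other strand), Timp2 on chromosome 11 (118301069 to 118355740) and Adam8 on chromosome 7 (139978932 to 139992562).

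**Figure D4:**
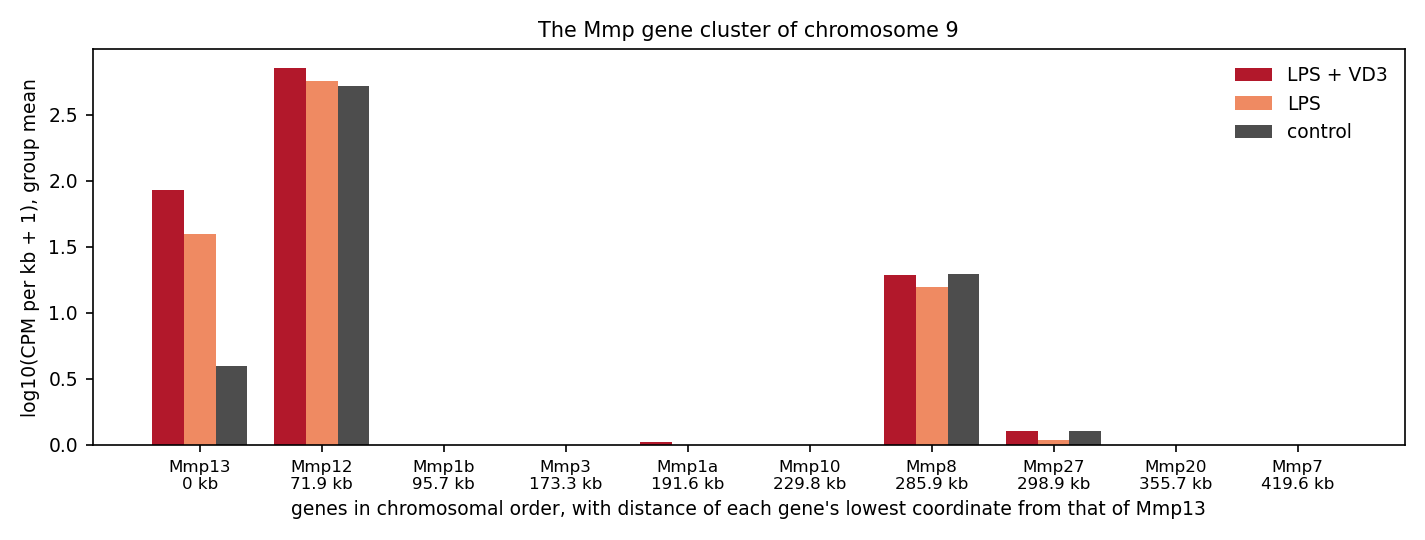
Mean level of the 10 MMP genes of the cluster on chromosome 9 as log10(CPM per kb + 1) (y axis) in LPS + VD3, LPS and control, with the genes in chromosomal order and the distance of each from Mmp13 in kb (x axis; genes are evenly spaced). Mmp13, Mmp12 and Mmp8 carry nearly all of the signal, and of these Mmp13 alone passed the test in LPS against control and in LPS + VD3 against LPS.

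The promoter windows of the 3 genes that rose in LPS against control are shown, since these are the members that moved together. They run from 250 bases before to 50 after the annotated start, in RefSeq on GRCm38.p6, and are printed 5′ to 3′ on the plus strand: chr9:7272264-7272563 for Mmp13, chrX:20869916-20870215 for Timp1 and chr14:54431348-54431647 for Mmp14. Capitals mark the AP-1 heptamer TGANTCA, its variant TGAGTAA and the ETS hexamer AGGAAG, searched on both strands; no marked matches overlap.
Mmp13: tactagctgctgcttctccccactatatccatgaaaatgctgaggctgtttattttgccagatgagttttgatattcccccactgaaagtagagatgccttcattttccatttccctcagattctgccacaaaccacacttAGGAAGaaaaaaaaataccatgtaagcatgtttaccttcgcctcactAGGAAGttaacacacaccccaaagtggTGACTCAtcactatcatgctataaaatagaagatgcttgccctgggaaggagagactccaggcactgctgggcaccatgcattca
Timp1: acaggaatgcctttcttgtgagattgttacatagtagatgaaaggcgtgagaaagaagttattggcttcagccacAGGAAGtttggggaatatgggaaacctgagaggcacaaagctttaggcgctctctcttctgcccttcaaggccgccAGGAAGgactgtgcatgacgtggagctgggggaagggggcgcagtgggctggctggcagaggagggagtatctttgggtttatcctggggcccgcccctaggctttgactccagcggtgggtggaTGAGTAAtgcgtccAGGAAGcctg
Mmp14: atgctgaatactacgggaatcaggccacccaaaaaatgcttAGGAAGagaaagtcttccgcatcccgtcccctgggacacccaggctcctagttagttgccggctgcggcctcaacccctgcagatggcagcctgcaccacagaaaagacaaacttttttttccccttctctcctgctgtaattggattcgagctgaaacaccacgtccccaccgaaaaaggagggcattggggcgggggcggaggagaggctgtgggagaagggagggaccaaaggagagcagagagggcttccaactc

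AP-1 is the Fos and Jun dimer known from collagenase promoters, and ETS factors often bind next to it. The Mmp13 window holds TGACTCA starting 35 bases before the start site and the ETS hexamer at 2 places before it. The Timp1 window holds TGAGTAA at base 277 of the window, after the start site, and the ETS hexamer at 3 places. The Mmp14 window holds 1 ETS hexamer, 209 bases before the start, and neither AP-1 form. Of 32851 windows of the same length in the table, 7.81% hold TGANTCA, 2.68% TGAGTAA and 35.4% AGGAAG. Windows were found for 8 of the 10 genes, not for Mmp9 and Mmp19. The second of 2 annotated starts of Mmp12 also has TGAGTCA, while the windows of Mmp8, Timp2, Timp3 and Adam8 hold neither AP-1 form. The ETS hexamer was also found in the windows of Mmp8 and Timp3 and in the first Mmp12 window. It was absent from the second Mmp12 window and from those of Timp2 and Adam8. The NF-kB motif, present in 8.46% of all windows, matched in the first Mmp12 window alone among these genes, and the DR3 element of the vitamin D receptor, present in 0.0396%, matched in none. A match is a run of letters, not a shown binding site, and these windows are short.

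Other genes of the pathway were followed in 7 lists, and all values given for them with an SE are on the log2 scale. Of 17 further MMP genes only Mmp2, a gelatinase, passed the count filter: it had 2 and 6 counts in LPS + VD3, 17 and 16 counts in LPS and 1 and 6 counts in control. It did so through the LPS libraries, where it was highest, so its values are a description with no test. Among 10 other inhibitor genes the 1 tested, Slpi, which inhibits neutrophil elastase, was at 274.5 and 176.7 CPM in LPS + VD3, 400.4 and 252.9 CPM in LPS and 38.8 and 29.1 CPM in control. It rose in LPS against control by 3.27 ± 0.29 (edgeR adjusted p = 1.86e-05).

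Of 12 other ADAM genes 7 were tested, and 2 rose and 1 fell in LPS against control, beside 31.4% of all genes called. Adam10, a sheddase of Notch and many receptors, had a log2 fold change of -1.22 ± 0.21 (edgeR adjusted p = 0.00122), with 192.5 and 194.2 CPM in LPS + VD3, 137.3 and 216.0 CPM in LPS and 394.8 and 430.2 CPM in control. Adam17, which releases tumour necrosis factor from the cell surface, rose by 0.85 ± 0.17 (edgeR adjusted p = 0.00386, but 0.0615 without control 2). Adam9 rose by 0.69 ± 0.15 (edgeR adjusted p = 0.0059), a call lost without scaling (0.0609) and without control 1 (0.105) or control 2 (0.0963). In edgeR's test 0 of the 7 were called in LPS + VD3 against LPS, beside 4 at an unadjusted p under 0.05 and 1, Adam15, with DESeq2. Over all genes, 2356 of 10724 had an unadjusted p under 0.05 there. Set against control, 3 rose and 4 fell in LPS + VD3, beside 34.6% of all genes called. Both counts include Adam19 and Adam33. Adam19 passed the count filter only through LPS + VD3, where it was highest, and Adam33 only through control, where it was highest. The values of Adam19 and Adam33 are thus a description with no test. Of 21 ADAMTS genes 4 were tested, and 1 rose in LPS against control, beside 31.4% of all genes called. It was Adamtsl5 (1.65 ± 0.42 on the log2 scale, edgeR adjusted p = 0.0128), a call lost without LPS 1 (0.0931), control 1 (0.0528) or control 2 (0.0687). In LPS + VD3 against LPS edgeR called 0 of them, with 1 at an unadjusted p under 0.05 and 0 called with DESeq2. Of these, 1 rose and 2 fell in LPS + VD3 against control, beside 34.6% of all genes called.

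In the list of genes that activate MMPs and ADAMs, 12 of 19 were tested. In LPS against control 5 rose and 1 fell, beside 31.4% of all genes called. The 5 include Serpinb2 and Rhbdf1, which passed the count filter only through groups with LPS, where they were higher than in control. Their rise against control is thus a description with no test. Furin, the convertase that removes the propeptide of Mmp14 and of ADAMs, was at 176.7 and 160.4 CPM in LPS + VD3, 263.7 and 219.4 CPM in LPS and 128.8 and 110.1 CPM in control. It rose by 1.02 ± 0.17 in LPS against control (edgeR adjusted p = 0.00106). Rhbdf2, the partner that carries Adam17 to the surface, rose by 1.75 ± 0.23 (edgeR adjusted p = 0.000215). In the plasminogen system, which activates several MMPs, the protease and its receptor moved apart. Plau, the urokinase gene, had a log2 fold change of -2.57 ± 0.24 (edgeR adjusted p = 2.71e-05), and its receptor gene Plaur 1 of 1.68 ± 0.22 (0.000254). Serpinb2, an inhibitor of urokinase, had 214 counts over both LPS libraries and 3 over both control libraries. Plau fell further in LPS + VD3 against LPS, by 1.36 ± 0.30 (edgeR adjusted p = 0.0339), with 8.78 and 4.17 CPM in LPS + VD3 against 17.4 and 15.8 CPM in LPS. This call was lost without LPS + VD3 2 (0.272), without control 1 (0.0523) or control 2 (0.0525) and when the control libraries were kept out of the fit (0.0731). It was the 1 gene of this list that passed there, beside 3.81% of all genes called. In LPS + VD3 against control 4 rose, Serpinb2 among them with the same limit, and 2 fell, beside 34.6% of all genes called.

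Of 26 genes of matrix proteins and other substrates 9 were tested. In LPS against control 6 rose and 1 fell, beside 31.4% of all genes called. The 6 include Thbs4, which had 0 counts in control and passed the count filter only through the groups with LPS. Its rise against control is thus a description with no test. Vcan, the proteoglycan versican, had a log2 fold change of 6.47 ± 0.25 (edgeR adjusted p = 6.38e-08), Fn1, fibronectin, 1.34 ± 0.16 (0.000118) and Tgfbi, a matrix adhesion protein, -1.57 ± 0.15 (2.72e-05). VD3 added to LPS lowered 2 genes of the list and raised none, beside 3.81% of all genes called. Tgfbi fell to 138.0 and 131.6 CPM in LPS + VD3, against 405.5 and 349.5 CPM in LPS (-1.49 ± 0.15, edgeR adjusted p = 0.000708). Thbs4, a thrombospondin, had 50 counts over both LPS + VD3 libraries, 191 over both LPS libraries and 0 over both control libraries. It was at least 78.3-fold higher in LPS than in control, and its value in LPS + VD3 against LPS, -1.93 ± 0.30 (edgeR adjusted p = 0.00957), did not pass without LPS + VD3 1 (0.132) or LPS + VD3 2 (0.18). The collagen genes Col1a1 and Col1a2 had 1 and 2 counts over all 6 libraries, and the collagen gene Col3a1 and the elastin gene Eln had 0 in every library. Set against control, 5 genes of this list rose in LPS + VD3, Thbs4 among them with the same limit, and 1 fell, beside 34.6% of all genes called. Of 17 surface partner and clearance genes 14 were tested. In LPS against control 3 rose and 1 fell, beside 31.4% of all genes called, and 4 rose and 2 fell in LPS + VD3 against control, beside 34.6%. Tspan14, a tetraspanin partner of the Adam10 protease, was at 30.1 and 27.8 CPM in LPS + VD3, 59.6 and 43.8 CPM in LPS and 165.9 and 158.6 CPM in control. Its log2 fold change in LPS against control was -1.65 ± 0.18 (edgeR adjusted p = 7.33e-05). Tspan14 was also the 1 gene of the list called in LPS + VD3 against LPS, beside 3.81% of all genes (-0.84 ± 0.19, edgeR adjusted p = 0.0412). That call was lost in 7 of 16 alternatives: without LPS + VD3 1 (0.177), LPS + VD3 2 (0.367), LPS 1 (0.0524), control 1 (0.104) or control 2 (0.105), with the control libraries out of the fit (0.1), and with limma-voom (0.0524). Itgav, an integrin subunit, rose in LPS against control by 1.67 ± 0.19 (edgeR adjusted p = 9.61e-05).

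Fibroblast and stromal markers, from cells that make much Timp2, Timp3 and Mmp14, were near the limit: 11 were in the table, 3 were tested, and Col3a1, Lum, Postn and Mfap4 had 0 counts in every library. Their summed level was 6.27 to 7.55 CPM in LPS + VD3, 9.02 to 9.49 CPM in LPS and 3.84 to 3.93 CPM in control. Monocyte and interstitial macrophage markers (11 in the table, 1 tested, Plac8 among those at 0) summed to 3.14 to 6.56 CPM in LPS + VD3, 5.45 to 9.63 CPM in LPS and 11.1 to 11.4 CPM in control. Lung epithelial markers (14 in the table, 2 tested, Sftpc and Scgb3a2 at 0) summed to 42.6 to 56.2 CPM in LPS + VD3, 41.0 to 43.4 CPM in LPS and 250.6 to 273.7 CPM in control. Nearly all of the control sum was Cdh1, at a mean of 229.6 CPM, and Krt19, at 30.0 CPM, and both were lower in the other groups. The other epithelial markers had at most 2.25 CPM in any library. Among them, Ager had a mean of 0.737 CPM in control and 1.83 CPM in LPS, and Epcam 0.657 and 0.306 CPM. Any part of epithelial RNA in the Mmp19 and Adam8 values was not tested. Endothelial markers (7 in the table, 2 tested) summed to 37.6 to 42.2 CPM in LPS + VD3, 43.4 to 52.3 CPM in LPS and 50.6 to 53.5 CPM in control. Most of this sum was Vwf, at a mean of 38.1 CPM in LPS + VD3, 44.8 CPM in LPS and 50.4 CPM in control. Lymphocyte markers (11 in the table, 1 tested) summed to at most 5.37 CPM in any library.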

How the data were processed

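The 6 libraries are bulk RNA-seq of mouse alveolar macrophages; per the labels, RNA and libraries were made with the Qiagen RNeasy Micro and KAPA mRNA HyperPrep kits. The deposited table holds raw counts per gene. TopHat2, mm10 and edgeR are named in the submitters' processing notes, with no versions; which program, annotation and strand setting made the counts is not given there. A second deposited table holds log2 values, equal to log2(CPM + 1) of the counts within 0.00423 for the 10327 genes matched; it does not list Timp1, Mmp9 or Timp3 and served in an alternative.

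Genes were kept by filterByExpr (minimum count 10, minimum total 15) and scaled by TMM, and 3 group means were fitted to all 6 libraries with edgeR 4.0.16 in R 4.3.3 (glmQLFit, glmQLFTest, 3 residual and 7.01 prior degrees of freedom). P-values were adjusted over all 10724 genes by Benjamini-Hochberg at 0.05. The SE of a log2 fold change is its size over the root of the F statistic. CPM are TMM-scaled. Exon lengths, GC content and positions came from GENCODE M21. GC offsets are a loess smooth per library (span 0.3), for the 94.1% of tested genes with a GC value. For a group without counts, 3 counts over both libraries served as the floor (counting error only). Alternatives used limma 3.58.1 and DESeq2 1.42.0, other scaling, filter and sample choices.

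The genes described, the lists and the rule for naming genes (all 10, and from each list up to 6 genes that passed per comparison, smallest p first) were chosen with earlier results of these data known. Libraries of a group differed by more than counting noise, with a chi-square over its degrees of freedom of 9.64 for LPS + VD3, 25.3 for LPS and 2.45 for control.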

Additional observations from a re-analysis of the deposited data

How the results depend on the processing

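Of the 8 tested genes, Mmp13, Mmp14, Mmp19 and Timp1 kept direction and call against control in all alternatives run, with and without VD3. Adam8 did so in LPS + VD3 against control. Other changes of call or value are given with the genes. The cause of these changes was not tested, but a fit without 1 library leaves its group with 1, assumed to vary like the others. Without scaling, the median of all genes in LPS against control was -0.288, against 0.006, and the share of higher genes among those called was 26.5%, against 49.2%. In LPS + VD3 against control it was 26.0%, against 50.7%. The fold changes given are relative to the TMM median.

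The 409 genes called in LPS + VD3 against LPS became 1114 with the replicate number as a block, 774 with GC offsets and 259 when the control libraries were kept out of the fit. Leaving out 1 library at a time gave 53 to 3670 there, 1885 to 4809 of 3371 in LPS against control and 2049 to 5403 of 3713 in LPS + VD3 against control. Of the 8 genes, 0 to 3 were then called in LPS + VD3 against LPS: none without either LPS + VD3 library, and Mmp12, Mmp13 and Mmp14 without LPS 2. The labels do not say whether equal numbers mark shared cells or a day. But each library with VD3 is labelled by the number of an LPS library, so pairs between LPS + VD3 and LPS are possible. The differences between libraries 1 and 2 correlated across genes at 0.167 between LPS + VD3 and LPS. This value was 0.125 between LPS and control and 0.0659 between LPS + VD3 and control. Not every pair correlated above 0.1, so the libraries were not taken as paired in the main fit. That choice matters in LPS + VD3 against LPS, with 409 genes called without the block and 1114 with it. Beyond Timp2 in LPS against control, the block changed no call of the 8 genes. With 11 to 12 counts in the control libraries, Timp1 has the largest SE, and the levels of Mmp9 and Timp3 are under what this depth can compare.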
